A study of Mus musculus with 6 samples.

Results

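The visinin-like calcium sensors are a group of 6 genes, *Hpcal4*, *Hpca*, *Hpcal1*, *Vsnl1*, *Ncald* and *Ncs1*, found by symbol among the 55341 genes of the deposited read-count table. Their RNA was counted in the aorta of 6 mice, 3 of each genotype, at 1 library per mouse. The libraries are called M2626, M2627 and M2628 (miRNA-26b-/-) and M2629, M2630 and M2631 (miRNA-26b+/+). *Hpcal4* is listed because the study picked it as a predicted miRNA-26b target from its p-value and fold change between these same libraries, so its values are given as a description. It took part in the fit across all genes, and nothing is drawn from its p-value. The other 5 genes were added as its relatives.

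All mice were 8 weeks old on chow diet, and the labels give the strain C57BL/6NCrl for both genotypes. In the miRNA-26b-/- mice the miRNA had been deleted from an intron of *Ctdsp1* with a tamoxifen-induced CreERT2 that was later bred out, in a line made from embryonic stem cells of another mouse strain. The labels call the samples endothelial cells of the aorta, whereas the methods describe whole aortic arch and thoracic aorta. The 6 smooth muscle markers summed to between 30900 and 40300 counts per 1000000 counts of the library (CPM). The 6 endothelial markers summed to between 405 and 1660 CPM, far less in every library. The share of RNA that came from each cell type was not measured. The libraries held between 25706728 and 33345037 counts, and a gene with 0 counts could lie at up to 0.117 CPM in the smallest and 0.09 CPM in the largest library. These limits take 3 counts for a count of 0 and cover counting error only. *Mir26b* had 20 counts in M2630 and none elsewhere, which is too few to check a genotype, since such libraries hold little of so short an RNA.

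Neuronal calcium sensors are small proteins that bind calcium through EF-hand loops and, in most members, carry an N-terminal myristoyl group that calcium binding exposes, so that the protein moves to membranes. They pass calcium signals to ion channels, receptors, lipid kinases and membrane traffic. *Hpca* (hippocalcin), *Vsnl1* and *Hpcal4* are best known from neurons, while *Hpcal1*, *Ncald* (neurocalcin delta) and *Ncs1* are also found outside the nervous system. In the aortic wall, neurons contribute axons of sympathetic nerves, and their cell bodies lie in ganglia beside the vessel.

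A first question was what the deleted miRNA could pair with in these genes. The mature miRNA-26b-5p is shown beside miRNA-26a-5p, which 2 other loci encode, since both have the same seed, bases 2 to 8, given in capitals. Both sequences are from RefSeq on GRCm38.p6.

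mmu-miR-26b-5p: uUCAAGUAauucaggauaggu

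mmu-miR-26a-5p: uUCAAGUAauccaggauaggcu

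The longest annotated 3′ untranslated region of each member was searched on the transcript strand for TACTTGAA (8mer), TACTTGA (7mer-m8), ACTTGAA (7mer-A1) and ACTTGA (6mer), counting a shorter match only outside a longer one. None of the 6 members held the 8mer. *Hpcal4*, *Ncald* and *Ncs1* held 1 match each of a shorter kind, printed with the bases before it and the match in capitals, and *Hpca*, *Hpcal1* and *Vsnl1* held none.

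Hpcal4 7mer-m8: aaatatactctatatTACTTGA

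Ncald 7mer-A1: ctggcagaagtttaaACTTGAA

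Ncs1 6mer: tttttttcaaaaacaaACTTGA

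The match in *Hpcal4* lies at bases 904 to 910 of a 3′ region of 3846 bases, chr4:123191759-123191765 on the forward strand of GRCm38. Among the 1679 genes whose longest 3′ region was within 20% of that length, 24.8% held TACTTGA at least once. The match in *Ncald* lies at bases 1695 to 1701 of 2653, chr15:37367127-37367133 on the reverse strand, and 25.4% of 2507 regions of like length held ACTTGAA. The match in *Ncs1* lies at bases 890 to 895 of 3724, chr2:31293155-31293160 on the forward strand, and 70.2% of 1767 such regions held ACTTGA. These shares count every occurrence, including those inside longer matches. The 3 genes with a match had the 3 longest of these regions. For *Hpca*, *Hpcal1* and *Vsnl1*, with regions of 858, 729 and 1065 bases, the share of regions of like length with the 6mer was 24.6%, 21.3% and 29.1%.

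The members were related in sequence but shared few stretches as long as a short read. Over their coding sequences, *Hpca* and *Hpcal1* had 86.0% identical bases and *Hpcal4* and *Vsnl1* 82.4%. *Ncald* was closest to *Hpcal1* (80.1%) and *Hpca* (79.3%), and *Ncs1* stood apart from the other 5 at 63.1% to 64.8%. Of the 5359 different stretches of 30 bases in the transcripts of *Hpcal4*, 3 were also present in another member, against 36 of 2974 for *Hpca*, 20 of 1665 for *Hpcal1*, 2 of 1926 for *Vsnl1*, 17 of 8628 for *Ncald* and 0 of 4680 for *Ncs1*. *Hpcal1* shared 343 of its stretches with other genes of any kind, among them pseudogenes such as *Gm20336* with 99, so part of its reads may have been dropped or split.

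**Figure D1:**
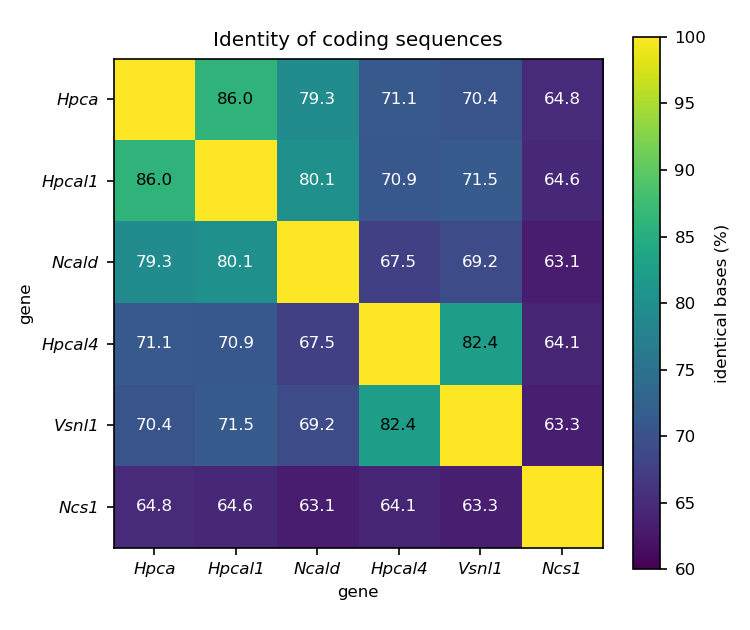
Identity of coding sequences between the 6 members, in percent of aligned columns, from light (100) to dark (60). The closest pairs are *Hpca* with *Hpcal1* (86.0%) and *Hpcal4* with *Vsnl1* (82.4%), and *Ncs1* is at most 64.8% identical to any other member.

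*Hpcal4* (ENSMUSG00000046093, chromosome 4 of GRCm38, 123183227 to 123194701, forward strand) encodes a visinin-like sensor of neurons. It had 0, 427 and 43 counts in M2626, M2627 and M2628 and 11, 1 and 0 counts in M2629, M2630 and M2631. This is 0, 12.8 and 1.54 CPM against 0.364, 0.0359 and 0 CPM. The library M2627 held 88.6% of all its counts, and 1 library of each genotype held none, so the groups overlapped. The mean was 4.78 ± 6.99 CPM for the miRNA-26b-/- group against 0.133 ± 0.201 CPM for the other group (SD, n = 3 each), each SD being larger than its mean. The fitted log2 fold change was 5.24 with a standard error of 1.80, higher in miRNA-26b-/- mice. Without M2627 the mean of the other 2 miRNA-26b-/- mice was 0.77 ± 1.09 CPM, and the gene no longer passed the filter on low values, which it passed only through M2627 and M2628. No exon of another gene overlaps its exons.

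*Hpca* (ENSMUSG00000028785, chromosome 4, 129111570 to 129122036, reverse strand), which encodes hippocalcin, a sensor of hippocampal neurons, had 220 counts (6.60 CPM) in M2627 and none in the other 5 libraries. *Vsnl1* (ENSMUSG00000054459, chromosome 12, 11325242 to 11436613, reverse strand), which encodes the visinin-like protein that names the group, had 80 counts (2.40 CPM) in M2627 and none in the other 5. For both genes, 2 of the 3 miRNA-26b-/- mice were at 0 like all 3 miRNA-26b+/+ mice. With counts in a single library, every regrouping of the mice gives a difference of the same size, so a permutation test has nothing to compare and none is given. Neither gene passed the filter on low values, more than 1 CPM in at least 2 libraries, and neither entered the test across genes. *Hpca* shares 57 exon bases with *Tmem54* on the other strand, which had 26 counts in M2627 and none elsewhere, and the counting did not use strand.

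*Hpcal1* (ENSMUSG00000071379, chromosome 12, 17690856 to 17791933, forward strand) encodes a hippocalcin-like sensor that is also found outside neurons. It had 38.1, 54.6 and 45.3 CPM in the miRNA-26b-/- libraries and 51.3, 38.7 and 45.7 CPM in the miRNA-26b+/+ libraries. The groups lay over the same range, with means of 46.0 ± 8.27 and 45.2 ± 6.34 CPM (SD, n = 3 each). On the log2 scale the genotypes differed by 0.02 (95% interval -0.43 to 0.47), with an adjusted p of 0.996 by the quasi-likelihood test of edgeR.

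*Ncald* (ENSMUSG00000051359, chromosome 15, 37366175 to 37792570, reverse strand) encodes neurocalcin delta, a sensor linked to clathrin and membrane traffic. It had 89.9, 82.5 and 42.5 CPM in the miRNA-26b-/- libraries and 67.5, 38.5 and 51.0 CPM in the miRNA-26b+/+ libraries. M2626 and M2627 were above every miRNA-26b+/+ library and M2628 was below 2 of the 3, so the groups overlapped. The means were 71.6 ± 25.5 and 52.3 ± 14.5 CPM (SD, n = 3 each), and the log2 fold change was 0.44 (95% interval -0.13 to 1.01, adjusted p = 0.83, edgeR quasi-likelihood). The exact permutation test gave p = 0.3 (two-sided), where 3 against 3 mice can reach 0.1 at the lowest. Without M2628 the log2 fold change was 0.70, with an unadjusted p of 0.00434 and an adjusted p of 0.193 (edgeR quasi-likelihood), and it was 0.25 to 0.65 with any other library left out. Over all genes the number at an unadjusted p-value under 0.05 also rose without M2628, from 1036 to 1692. Of the 8581 exon bases of *Ncald*, 347 are shared with *Gm28221* on the other strand (39 to 379 counts per library) and 286 with *Gm49397* on the same strand (12 to 137 counts), against 1072 to 2752 counts for *Ncald*.

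*Ncs1* (ENSMUSG00000062661, chromosome 2, 31245823 to 31295989, forward strand) encodes neuronal calcium sensor 1, which binds phosphatidylinositol 4-kinase and dopamine D2 receptors. It had 76.2, 55.6 and 42.2 CPM in the miRNA-26b-/- libraries and 78.2, 59.5 and 62.7 CPM in the miRNA-26b+/+ libraries. The means were 58.0 ± 17.1 and 66.8 ± 9.999 CPM (SD, n = 3 each), and the groups overlapped. The log2 fold change was -0.22 (95% interval -0.70 to 0.25, adjusted p = 0.924, edgeR quasi-likelihood), and the exact permutation test gave p = 0.4 (two-sided). With a library left out the log2 fold change lay between -0.47 (without M2626) and -0.04 (without M2628).

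**Figure D2:**
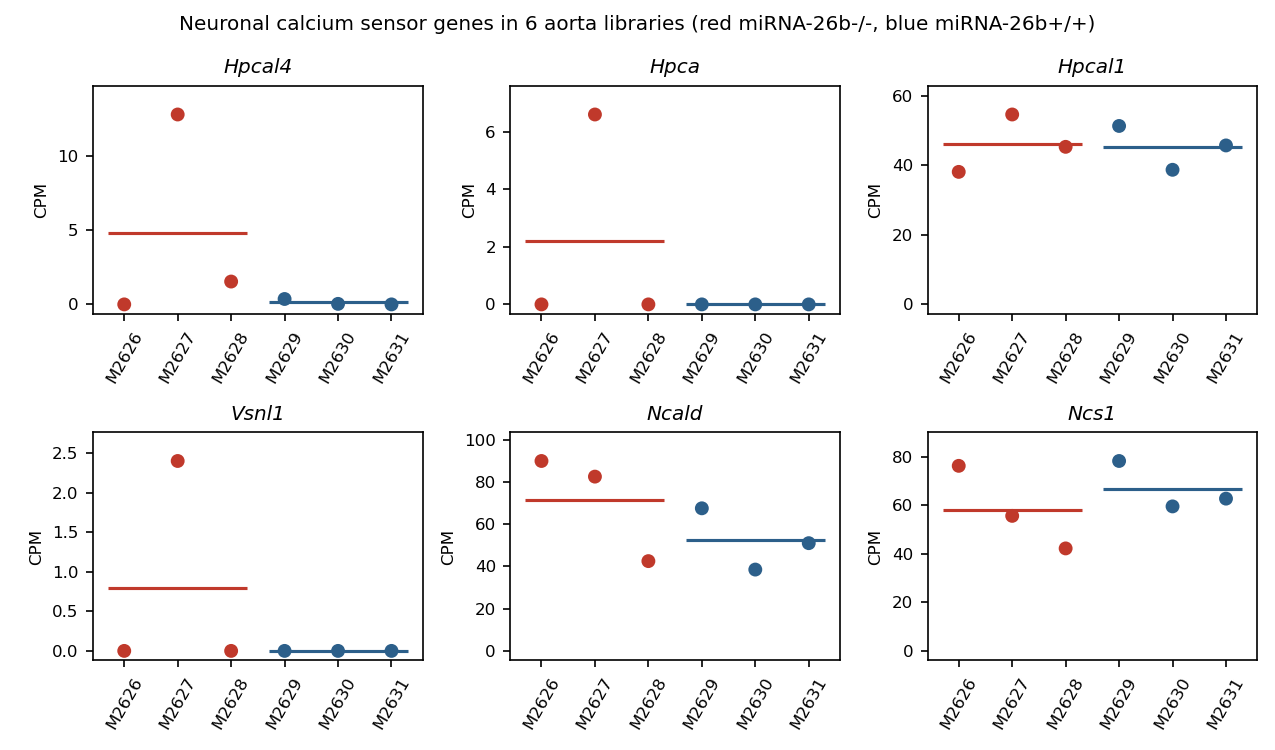
CPM of each member (vertical axes, each from 0) in the 6 libraries (horizontal axes), with points in red for miRNA-26b-/- and blue for miRNA-26b+/+ mice and lines at the group means. *Hpcal4*, *Hpca* and *Vsnl1* are highest in M2627, at 12.8, 6.60 and 2.40 CPM, and at or near 0 in most other libraries, while *Hpcal1*, *Ncald* and *Ncs1* are at 38.1 CPM or more in all 6.

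Of the 6 members, 4 were tested and 1, *Hpcal4*, had an unadjusted p-value under 0.05 with edgeR's quasi-likelihood test. Over all 16017 genes tested this share was 6.47%, made up of 3.4% higher in miRNA-26b-/- mice and 3.07% lower, and since *Hpcal4* had been picked by its p-value in this contrast nothing is read from the count. After adjustment 0 of the 4 remained under 0.05, against 1 gene in all (0.00624%). In 0 of the 6 members did the groups fail to overlap, against 11.7% of the genes tested. For *Hpcal1*, *Ncald* and *Ncs1* the intervals leave room for log2 differences of up to 0.47, 1.01 and -0.70. The labels give no litter, batch or date for the mice. The p-values set the difference between genotypes against the spread within these groups of 3 and 3 libraries.

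*Ncald* varied more between the mice than most genes of like level. The coefficient of variation of CPM over the 6 libraries was 2.08 for *Hpcal4*, against a median of 0.67 for the 2877 genes whose mean CPM was within 2 times its own. *Hpcal4* was picked by its fold change between these same libraries and M2627 held 88.6% of its counts, so nothing is read from this spread. For *Hpca* and *Vsnl1*, found in a single library, it is at its ceiling and compares nothing. Of the other members *Hpcal1* was the steadiest, at 0.145 against a median of 0.187. *Ncs1* was at 0.215 and *Ncald* at 0.345, both against a median of 0.169, and 95.4% of the 4256 genes of like level varied less than *Ncald*.

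Levels were compared between genes per length, as TPM, the transcripts of a gene in 1000000 transcripts, from the counts and the exon length of each gene. *Hpcal1* was highest, at 87.2 ± 13.4 TPM (SD over 6 libraries), followed by *Ncs1* at 43.3 ± 8.89 TPM and *Ncald* at 23.1 ± 7.08 TPM. *Hpcal1* exceeded *Ncs1* in 6 of 6 libraries, by 1.37 to 2.95 times. *Ncs1* exceeded *Ncald* in 6 of 6 with these lengths, but the exons of all 12 transcripts of *Ncald* add up to 8581 bases and its longest transcript has 3733. With the longest transcript of every gene *Ncald* had 42.9 ± 13.3 TPM and *Ncs1* 34.9 ± 7.16 TPM, *Ncald* being higher in 5 of 6 libraries, so their order depended on the length used. The neuronal members lay far lower: in M2627, where they were highest, *Hpcal4* had 7.51, *Hpca* 7.07 and *Vsnl1* 3.84 TPM, beside 101 TPM for *Hpcal1*. The levels of *Hpcal4* and *Hpca* in that library are close, and with the longest transcripts their order turned, to 6.59 and 9.06 TPM.

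Genes of sympathetic neurons were also highest in M2627. In bulk tissue a higher level can come from more cells of a type or from more RNA in each cell, which cannot be told apart. The 13 genes of the list, such as *Th*, *Dbh*, *Npy*, *Stmn2*, *Tubb3*, *Snap25* and *Elavl4*, summed to 491 CPM in M2627 and to between 20.8 and 76.9 CPM in the other 5 libraries, and all 13 were highest in M2627. *Dbh*, which encodes dopamine beta-hydroxylase of noradrenaline synthesis, had 2892 counts there and 413 in M2630, and *Th*, encoding tyrosine hydroxylase of the same pathway, had 1244 and 98. Both had none in the other 4 libraries. Of the 11 genes tested, 7 were higher in miRNA-26b-/- mice at an unadjusted p-value under 0.05 and 0 after adjustment with edgeR's quasi-likelihood test. Over all 16017 genes tested, 3.4% were higher at the unadjusted threshold. Without M2627, 0 of 9 genes of the list were higher and 1 was lower. The count, recomputed without each library after seeing the data, also depended on miRNA-26b+/+ libraries, with 1 of 11 higher without M2631 and 2 of 11 without M2629, and lay between 6 and 9 with any other library left out. The adipocyte genes *Adipoq*, *Plin1*, *Ucp1*, *Fabp4* and *Cidea* had their highest sum in M2627 as well, 1650 CPM against 420 to 1160 CPM, although *Cidea* had 119 CPM in both M2627 and M2630. The part of these cells in the levels of *Hpcal4*, *Hpca* and *Vsnl1* was not tested.

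The neuron genes, *Hpcal4*, *Hpca* and *Vsnl1* were thus all highest in the same library. In the other 5 libraries *Hpca* and *Vsnl1* had no counts, and *Hpcal4* had an order other than that of the summed neuron genes. Over all 6 libraries the rank correlation of *Hpcal4* with that sum was 0.67 (Spearman), and what links them was not tested. For every 100 counts of *Dbh*, *Hpcal4* had 14.8 counts in M2627 and 0.242 in M2630. M2630 had the second highest sum of neuron genes, 76.9 CPM, with 1 count of *Hpcal4* and none of *Hpca* or *Vsnl1*. M2628, with 43 counts of *Hpcal4*, had a sum of 35.8 CPM, close to the 33.4 CPM of M2631, where *Hpcal4* had none. Single neuron genes differed in this, and *Stmn2* alone gave 21.5 CPM of the sum in M2631. After M2627, *Slc6a2* and *Slc18a2* were highest in M2628, like *Hpcal4*, at 14.7 and 4.77 CPM against 6.26 and 0 CPM in M2631. *Th*, *Dbh*, *Ddc*, *Npy*, *Tubb3*, *Prph* and *Snap25* were next highest in M2630, *Stmn2* in M2631 and *Phox2a* in M2629. The dopamine receptor gene *Drd2*, a partner of *Ncs1* found on sympathetic neurons, had 171 counts in M2627 and none in the other 5 libraries, as did *Hpca* and *Vsnl1* with 220 and 80. In all, 121 genes had at least 50 counts in M2627 and none in any other library, *Hpca*, *Vsnl1* and *Elavl4* among them. In the other libraries this number was between 14 in M2630 and 65 in M2628. Counts confined to a single library were therefore seen in all 6, most often in M2627.

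**Figure D3:**
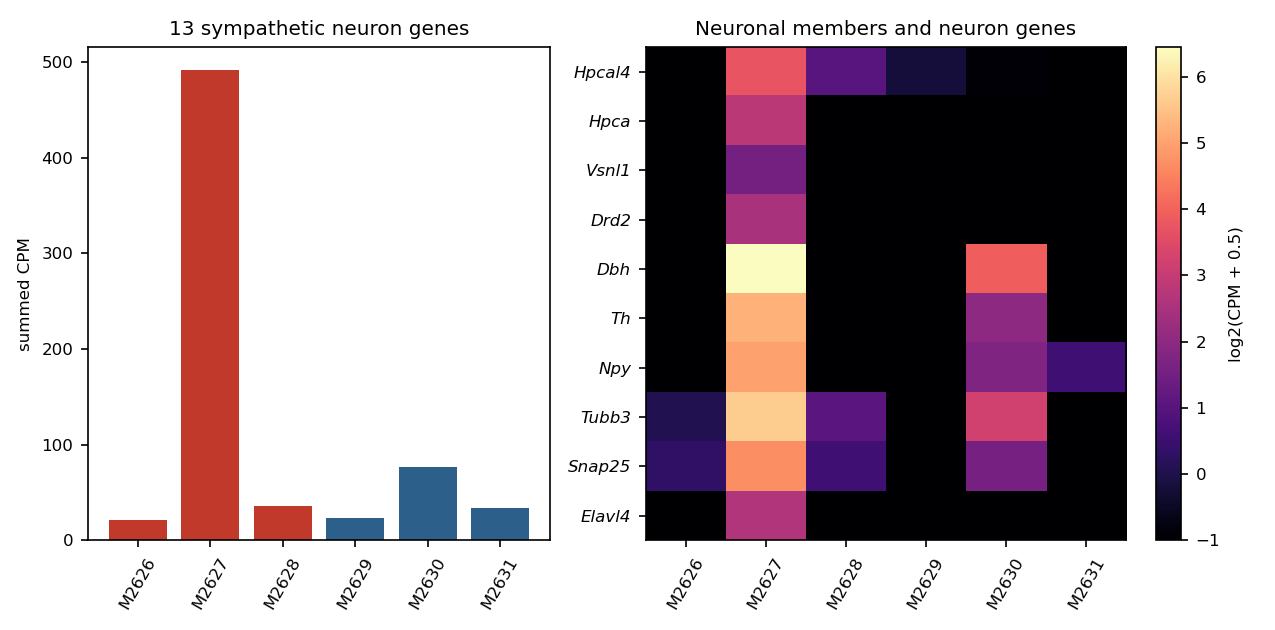
Summed CPM of the 13 sympathetic neuron genes in each library (left, bars from 0, red for miRNA-26b-/- and blue for miRNA-26b+/+) and log2(CPM + 0.5) of *Hpcal4*, *Hpca*, *Vsnl1*, *Drd2* and 6 of those genes (right, brighter is higher). M2627 is highest in every row, and M2630, next in the sum with 76.9 CPM, is dark for all 3 members.

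Genes of Schwann cells, which wrap these axons, were not confined to M2627. The 10 genes of the list summed to 229, 235 and 168 CPM in the miRNA-26b-/- and to 61.3, 90.3 and 106 CPM in the miRNA-26b+/+ libraries, so these sums did not overlap between the genotypes. M2626, with 229 CPM, had no counts of *Hpcal4*, *Hpca* or *Vsnl1*.

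*Ncald* was high where the sum of endothelial genes was low. The 6 endothelial genes (*Pecam1*, *Cdh5*, *Kdr*, *Tek*, *Vwf* and *Tie1*) summed to 405 CPM in M2626 and 443 CPM in M2627, the 2 libraries with the most *Ncald*. They summed to 1160 CPM in M2629 and 1340 CPM in M2631, where *Ncald* had 67.5 and 51.0 CPM. The sums were highest in M2630 (1550 CPM) and M2628 (1660 CPM), which had the least *Ncald*, 38.5 and 42.5 CPM. The sum was mostly *Pecam1* and *Vwf*, and *Kdr* did not share the order, with 29.8 CPM in M2627 and 8.92 CPM in M2628. The 5 macrophage genes *Adgre1*, *Cd68*, *C1qa*, *Csf1r* and *Mrc1* also had their lowest sums in M2626 and M2627 (111 and 156 CPM) and their highest in M2628 (399 CPM), with 234 to 269 CPM in the miRNA-26b+/+ libraries. These orders were noticed after the values were seen, and their part in the difference of *Ncald* between the genotypes was not tested. *Ncs1* shared this order in part. It had 76.2 CPM in M2626 and its lowest level, 42.2 CPM, in M2628, but 55.6 CPM in M2627 and its highest level, 78.2 CPM, in M2629. *Hpcal1* had no such order, with its lowest and highest levels, 38.1 and 54.6 CPM, in the 2 libraries with the lowest endothelial sums.

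**Figure D4:**
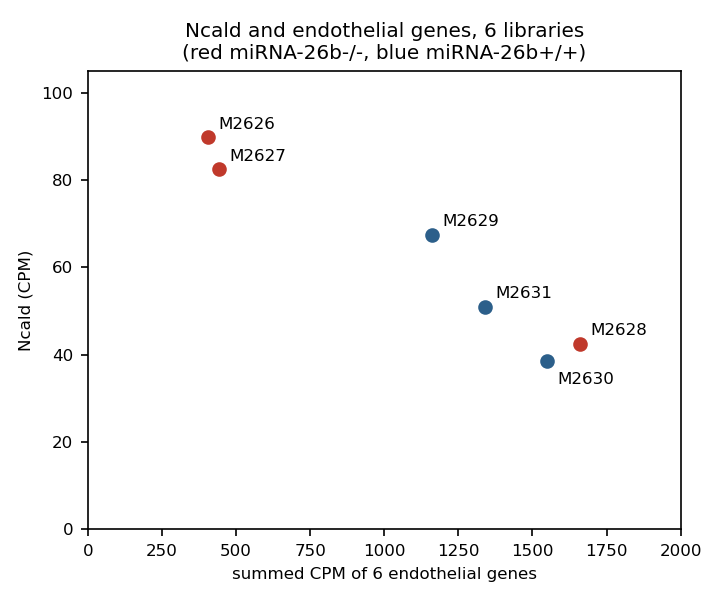
*Ncald* (vertical axis, CPM) against the summed CPM of 6 endothelial genes (horizontal axis), 1 point per library, red for miRNA-26b-/- and blue for miRNA-26b+/+. M2626 and M2627 lie at the upper left (405 and 443 CPM of endothelial genes), and M2628 lies with the miRNA-26b+/+ library M2630 at the lower right.

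Genes whose pattern over the 6 libraries was most like that of each member were named by the Pearson correlation of log2(CPM + 0.5), over 13615 genes tested that have names other than clone or predicted-gene numbers. With 6 libraries many genes reach high values, 14 of them over 0.95 for *Hpcal4*, and the correlation takes no account of the size of the differences. The 5 most like *Hpcal4* were *Tmem219* (0.995), *Omp* (0.987), *Daam2* (0.987), *Tcf7l1* (0.976) and *Abcb1a* (0.973). *Omp*, which encodes a protein of olfactory neurons, had 297 counts in M2627, 32 in M2628 and none in the other 4 libraries, the nearest to *Hpcal4* in its counts as well. *Tmem219* had 929 counts in M2627 and 460 to 600 in the others, and so shares the order but not the size of the differences. *Hpca* and *Vsnl1*, alike in being present in M2627 alone, had the same 3 nearest genes, *Nudcd3* (0.989), *Kidins220* (0.983) and *Aqp1* (0.979). The nearest to *Hpcal1* were *Sgo2a* (0.984), *Mfsd5* (0.984) and *Shd* (0.979), to *Ncald* *Engase* (0.994), *Hpf1* (0.991) and *Cfap20* (0.991), and to *Ncs1* *Zfp991* (0.994), *Map2k3* (0.988) and *Akt1s1* (0.985).

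The remaining neuronal calcium sensors are the Kv channel-interacting proteins and the sensors of photoreceptors. Of the 7 genes (*Kcnip1* to *Kcnip4*, *Rcvrn*, *Guca1a* and *Guca1b*), 6 had counts and 5 were tested. Of these 5, 0 passed an unadjusted p-value of 0.05 in edgeR's quasi-likelihood fit, beside 6.47% of all genes tested. The median log2 fold change of the 5 was 0.51, the value of *Kcnip4*, with 3 above 0 and 2 below, beside 0.01 over all genes tested. Without M2628 it was 0.05, with 3 of these genes tested. *Kcnip4*, whose product sets the gating of A-type potassium channels, was the one found in every library, with 248, 381 and 270 counts for miRNA-26b-/- and 227, 226 and 182 for miRNA-26b+/+ (log2 fold change 0.51, standard error 0.398, adjusted p = 0.88). *Kcnip1* had 17, 0 and 100 counts against 38, 0 and 0, and *Kcnip3* had 10, 45 and 116 against 0, 21 and 58. Both were highest in M2628 and not in M2627, unlike *Hpcal4*. *Kcnip2* had 3 counts in all and *Rcvrn*, the recoverin of photoreceptors, had none.

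Among 13 other EF-hand sensors and buffers, 11 were tested and 1 had an unadjusted p-value under 0.05 with edgeR's quasi-likelihood test, 0 after adjustment. Over all genes tested the unadjusted share was 6.47%. The median log2 fold change of the 11 was 0.09. *Calm2* and *Calm3*, which encode calmodulin, the general calcium sensor of cells, had log2 fold changes of 0.04 (95% interval -0.26 to 0.34) and -0.02 (95% interval -0.34 to 0.31). The gene past the unadjusted threshold was *Pvalb*, encoding the calcium buffer parvalbumin of fast muscle and some neurons. It had 43 counts in M2626, 217 in M2627 and none in the other 4 libraries. *Pvalb* passed the filter on low values only through M2626 and M2627, both miRNA-26b-/-, so nothing is read from its p-value. M2626 and M2627 also had the highest sums of the 5 skeletal muscle genes *Acta1*, *Ckm*, *Mylpf*, *Tnnt3* and *Myh4*, 26.3 and 83.8 CPM against 2.14 to 11.1 CPM in the other libraries. However, *Mylpf* was highest in M2628 (6.24 CPM), and *Ckm* had 10.4 CPM in M2630 against 4.24 CPM in M2626. The part of these muscle genes in *Pvalb* was not tested. *Calb1* and *Calb2*, the calbindin and calretinin of neurons, had no counts in any library.

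Among 14 partners and effectors of these sensors, 9 were tested. Of these 9, 0 had an unadjusted p-value under 0.05 with edgeR's quasi-likelihood test, beside 6.47% of all genes tested. The median log2 fold change of the 9 was -0.03. *Pi4kb*, the lipid kinase that Ncs1 binds, differed by -0.03 on the log2 scale (standard error 0.214). *Nmt1* and *Nmt2*, the enzymes that attach the myristoyl group, differed by -0.23 and 0.15 on the log2 scale (adjusted p = 0.859 and 0.939, edgeR quasi-likelihood). Of the A-type channel genes, *Kcnd3* had 473 to 1301 counts in all 6 libraries, and *Kcnd2* had 60 counts in M2627, 55 in M2629 and none elsewhere. *Il1rapl1*, a partner of Ncs1 in brain, *Grk1* and *Gucy2f* had no counts.

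**Figure D5:**
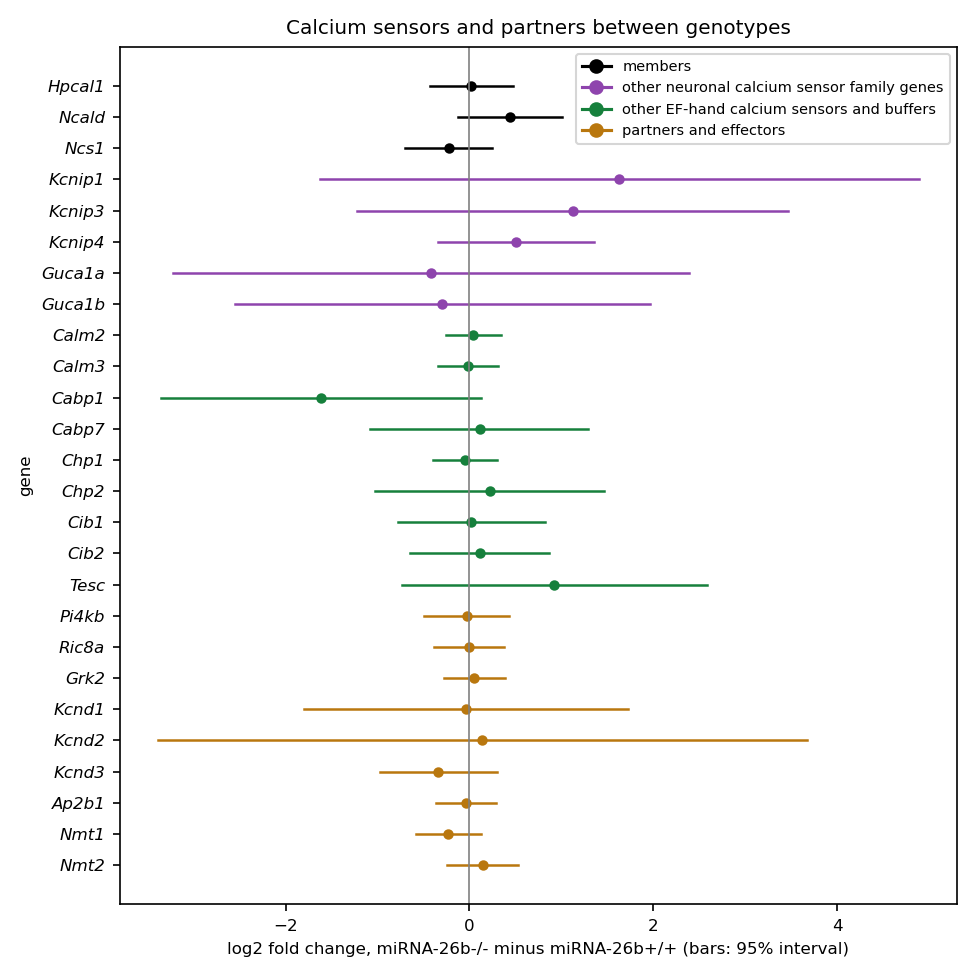
Log2 fold changes, miRNA-26b-/- minus miRNA-26b+/+ (horizontal axis), of tested calcium sensors and partners named here (vertical axis), with bars for 95% intervals and colours for the 4 lists. *Hpcal4* is left out, as it was picked from this contrast, and *Pvalb*, as it has no counts in miRNA-26b+/+ mice. The intervals of *Hpcal1*, *Ncald* and *Ncs1* all cover 0.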

How the data were processed

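Libraries of aortic RNA (TruSeq RNA v2) were aligned by the authors to GRCm38 (mm10) with STAR and counted with featureCounts 1.6.4 over the exons of each gene name, per the file headers with the GENCODE release M21 annotation (the methods name another release), without strand and giving a read to each gene it overlapped. The deposited read counts were used as they stand, 25706728 to 33345037 per library, with the deposited gene length, an other value, in bases. A second deposited table, with log2 CPM and the authors' own fold changes and p-values, was not used.

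Genes were kept where 2 or more libraries exceeded 1 CPM and the counts summed to 2 or more. TMM normalization and the quasi-likelihood fit came from edgeR 4.0.16 (R 4.3.3, prior count 0.125), with Benjamini-Hochberg adjustment over all genes tested. Standard errors are the fold change over the root of the F statistic. Libraries of the same genotype differed by far more than sampling noise. Alternatives were other tests (DESeq2 1.42.0, voom of limma 3.58.1, likelihood ratio, robust shrinkage), normalizations, filters, a prior count of 2, the longest transcript as length, and leaving out each library. The procedure was tested on simulated counts. The members and lists were chosen with earlier results of these data known. Named genes are the members, the genes of the lists, the 5 genes most like *Hpcal4* and the 3 most like each other member. *Omp* and *Drd2* counts, the genes in a single library and the order of *Ncald* with endothelial genes were singled out after their values were seen. Some genes of the lists are counted in the lists' totals and are not reported here by name. *Gm28221*, *Gm49397*, *Tmem54* and *Gm20336* are named for sharing bases with a member.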

Additional observations from a re-analysis of the deposited data

How the results depend on the processing

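The log2 fold changes of *Ncald* and *Ncs1* kept their direction, with ranges of 0.247 to 0.704 and -0.465 to -0.0423 when a library was left out, and *Hpcal1*, *Ncald* and *Ncs1* stayed over an adjusted p-value of 0.05, in all 16 alternatives. *Hpcal1* turned with a library left out, ranging from -0.13 (without M2627) to 0.124, and was -0.0697 without M2630. *Hpcal4* had 3.70 with limma voom, ranged from 4.64 to 7.93 (without M2629) with a library left out, and could not be tested without M2627 or M2628, as it then failed the filter. Members with an unadjusted p-value under 0.05 numbered 1 with edgeR's quasi-likelihood test, 0 with limma voom, 2 (*Hpcal4* and *Hpca*) with no filter on CPM, and 0 to 1 with a library left out, 0 being without M2627. The 1 member was *Ncald* without M2628 and otherwise *Hpcal4*, whose p-value had chosen it, so these counts say nothing of its stability. Over all genes the number at an unadjusted p-value under 0.05 was 1036, from 686 (without M2631) to 1692 (without M2628) with a library left out, and after adjustment 1, while DESeq2 gave 57, the likelihood ratio test 19, voom and robust shrinkage 3 each, and leaving out a library 0 to 82. The cause of these changes was not tested. The mean level of *Ncald* was 42.9 TPM in place of 23.1 TPM with the longest transcript as its length. Genes under about 0.1 CPM cannot be told from 0 at this depth. The labels carry no replicate numbers, and no paired analysis was possible because nothing links the mice of both genotypes.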
